A study of Rattus norvegicus with 6 samples.

Results

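The cyclins that act in the G1 phase of the cell cycle and the kinases they switch on were examined in cultured rat oligodendrocyte precursor cells (OPCs) treated with ZJU-37, an inhibitor of the kinase RIPK1. The 8 genes, all found by name in the deposited table of 32883 genes, were the D cyclins Ccnd1, Ccnd2 and Ccnd3, their kinases Cdk4 and Cdk6, the E cyclins Ccne1 and Ccne2, and Cdk2, the kinase of the E cyclins. OPCs are the dividing cells of the brain from which myelin-forming oligodendrocytes arise. They came from the cerebral cortices of 2 Sprague Dawley rats at postnatal day 0, were freed from a mixed glial culture by shaking, and were then kept in Neurobasal medium with B27 and N2. The treated group received 5 µM ZJU-37 and the control group the same volume of its solvent DMSO, for 36 h by the sample labels (the study's methods give a shorter time). The labels name no allele and no other agent. Each group had 3 poly-A RNA-seq libraries. The study's methods call them biological repeats, but the labels do not tie them to separate cultures or animals, so p-values measure the spread between libraries, which may be technical.

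A cyclin is the regulatory subunit without which a cyclin-dependent kinase (CDK) stays inactive. Mitogens raise the D cyclins, which with Cdk4 and Cdk6 begin to phosphorylate the retinoblastoma protein, and the E cyclins with Cdk2 complete that step, which frees E2F transcription factors to switch on the genes of DNA replication. In OPCs the main mitogen is platelet-derived growth factor, sensed by the receptor Pdgfra.

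In ZJU-37 cultures 6 of the 8 transcripts rose and 0 fell. A gene was called where the Benjamini-Hochberg adjusted p of the edgeR quasi-likelihood test, taken over 14670 tested genes, was below 0.05. Of all tested genes, 9.43% passed that test as higher, 5.58% as lower and 15.0% in either direction. The increases were largest for Ccnd1, at 2.59-fold, followed by Ccnd2, Ccne2, Cdk2, Ccne1 and Cdk6 at 1.87, 1.77, 1.65, 1.53 and 1.32-fold. Ccnd3 and Cdk4 did not pass the test, with 1.04 and 1.07-fold. The median log2 fold change of the 8 genes was 0.67, against -0.03 over all tested genes. In 7 of the 8, Ccnd3 being the exception, each ZJU-37 library lay above each DMSO library, as in 19.0% of all tested genes. The replicate block gave the same 6 calls, where 16.2% of all tested genes were higher. An exact permutation test of a single gene cannot go below p = 0.1 with 3 libraries against 3, so the test across all genes carries these calls.

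The libraries held between 13935865 and 24097927 counts (median 18060196 for DMSO and 20934148 for ZJU-37), and the 8 genes had between 262 and 36751 counts in a library, far above the 3 counts taken as the limit of detection. Markers of OPCs, among them Pdgfra, Cspg4, Olig1 and Olig2, were found in every library, but so were those of other cells. In DMSO and ZJU-37 the summed markers of oligodendrocytes (10 genes) ran from 11121 to 22114 and from 4685 to 9803 CPM, those of microglia (10 genes) from 2116 to 3636 and from 1521 to 3116 CPM, and those of astrocytes (8 genes) from 969 to 1598 and from 878 to 1328 CPM. CPM are counts scaled to a common library size by TMM, a scaling that aligns the bulk of the genes between libraries. Of these sums, that of the oligodendrocyte markers did not overlap between the groups and was lower with ZJU-37, with 2 of 10 genes called lower and 0 higher. With the replicate number as a block, which pairs same-numbered libraries, 6 of the oligodendrocyte, 4 of the microglia, 4 of the astrocyte, 3 of the neuron and 2 of the fibroblast and vascular markers were called lower, where 15.9% of all tested genes were. Without it 0 were in the last 4 of these lists, and the astrocyte marker Sox9 was higher. The OPC markers, 9 of 10 found, went both ways, with 4 higher (Pdgfra, Cspg4, Olig1 and Ptprz1) and 4 lower (Gpr17, Nkx2-2, Vcan and Sox10), and summed to 4426 to 5168 CPM in DMSO and 4613 to 6361 CPM with ZJU-37. The 8 neuron markers summed to between 656 and 984 CPM over the 6 libraries and the 6 fibroblast and vascular markers found to between 36.2 and 111 CPM, with Cldn5 at 0 throughout. In bulk RNA, fewer cells of a type and less RNA per cell cannot be told apart, and the part of cell content in the results on the cyclins and kinases was not tested.

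The stretches of DNA around the start sites are shown first, as a description of the sequence. The RefSeq promoter table of assembly GRCr8 held 4 of the 8 genes, with 250 bases before and 50 bases after the start. Ccne1 and Cdk2 rose with ZJU-37, and Ccnd3 and Cdk4 are the pair that did not pass the test. Ccnd1, Ccnd2, Cdk6 and Ccne2 had no entry. Capitals mark matches, on either strand, to the core of E2F sites (TCCCGC), the E-box bound by MYC and its relatives (CACGTG), the core of the cAMP response element (TGACGT) and the CCAAT box.
Ccne1, chr1:99927860-99928159, minus strand: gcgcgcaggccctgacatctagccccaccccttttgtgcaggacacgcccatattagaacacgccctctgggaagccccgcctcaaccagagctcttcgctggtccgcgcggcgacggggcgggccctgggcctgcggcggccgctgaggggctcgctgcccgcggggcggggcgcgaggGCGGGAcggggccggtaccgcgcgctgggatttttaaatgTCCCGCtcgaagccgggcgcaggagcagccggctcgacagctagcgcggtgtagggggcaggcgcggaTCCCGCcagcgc
Cdk2, chr7:1721829-1722128, minus strand: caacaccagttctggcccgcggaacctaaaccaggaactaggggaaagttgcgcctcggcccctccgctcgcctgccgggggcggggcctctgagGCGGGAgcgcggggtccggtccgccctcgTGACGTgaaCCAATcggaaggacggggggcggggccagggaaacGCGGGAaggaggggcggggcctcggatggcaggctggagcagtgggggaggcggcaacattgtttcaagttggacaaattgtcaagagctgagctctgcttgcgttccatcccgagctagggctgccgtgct
Ccnd3, chr9:20897826-20898125, minus strand: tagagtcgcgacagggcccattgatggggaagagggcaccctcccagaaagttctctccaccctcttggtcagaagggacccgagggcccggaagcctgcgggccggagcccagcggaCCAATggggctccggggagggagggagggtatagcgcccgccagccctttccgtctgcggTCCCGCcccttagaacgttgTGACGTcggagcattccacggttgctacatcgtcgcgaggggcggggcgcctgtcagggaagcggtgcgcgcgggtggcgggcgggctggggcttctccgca
Cdk4, chr7:64771203-64771502, plus strand: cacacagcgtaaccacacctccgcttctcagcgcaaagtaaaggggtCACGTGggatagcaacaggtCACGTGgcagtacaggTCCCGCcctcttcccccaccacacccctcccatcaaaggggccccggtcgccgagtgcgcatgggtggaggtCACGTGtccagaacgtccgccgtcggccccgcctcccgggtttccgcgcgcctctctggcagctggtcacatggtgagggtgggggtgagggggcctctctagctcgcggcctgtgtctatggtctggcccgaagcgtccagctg

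The E2F core was present in each of these windows, with 3 matches in Ccne1, 2 in Cdk2 and 1 each in Ccnd3 and Cdk4, whereas 18.7% of the 33469 promoter windows of the table held it. The longer E2F octamers TTTCCCGC, TTTGGCGC, TTTCGCGC and TTTGCCGC, the first of which contains the core, had 0 matches in these windows and were in 2.14% of all. The E-box was found in Cdk4, with 3 matches, and in 6.42% of all windows. The cAMP response core stood in Cdk2 and Ccnd3, each with 1 match, and in 7.94% of all. Each of these 2 windows also held 1 CCAAT box, as did 37.5% of all. The windows were rich in G and C, from 66.3% in Cdk4 to 73.3% in Ccne1 against a median of 51.7% over the table, and short motifs made of G and C are more frequent in such sequence. Matches are descriptions of these letters and were not related to the change of a gene.

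The D cyclins are the subunits that answer to growth signals. Ccnd1, cyclin D1 (ENSRNOG00000020918, chromosome 1, 218090750 to 218100325, minus strand in the deposited table, which does not name its build), was measured at 541, 602 and 556 CPM in DMSO (replicates 1, 2 and 3 in this order, here and for each gene) and at 1301, 1576 and 1519 CPM in ZJU-37. The lowest ZJU-37 library was thus 2.16-fold above the highest DMSO library. Its mean rose from 566 ± 31.9 to 1466 ± 145 CPM (SD, n = 3 libraries each). The edgeR log2 fold change was 1.37 (standard error 0.10, adjusted p = 4.10e-04). Ccnd1 was the 1 gene of the 8 whose log2 fold change reached 1, a limit that 2.79% of all tested genes passed together with the test. By the size of its increase it ranked 166 of 14670.

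Ccnd2, cyclin D2 (ENSRNOG00000057710, chromosome 4, 159674885 to 159697207, minus strand), stood at 131, 98.8 and 135 CPM in the DMSO libraries and at 200, 231 and 251 CPM in the ZJU-37 libraries. DMSO replicate 2 was the lowest, and the groups did not overlap. Its means of 121 ± 19.7 and 227 ± 25.4 CPM differed by 0.90 on the log2 scale (standard error 0.14, adjusted p = 0.0071, edgeR).

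Ccnd3, cyclin D3 (ENSRNOG00000050258, chromosome 9, 15404822 to 15410943, minus strand), had 72.2, 76.3 and 80.8 CPM in the DMSO libraries and 67.7, 86.5 and 83.8 CPM in the ZJU-37 libraries. The ZJU-37 libraries included both the lowest and the highest value. Its log2 fold change was 0.05 (standard error 0.10, adjusted p = 0.782, edgeR), and the 95% confidence interval of the fold ran from 0.875 to 1.23. The fold changes of all 6 genes that passed, the smallest being 1.32 for Cdk6, lay outside this interval.

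**Figure D1:**
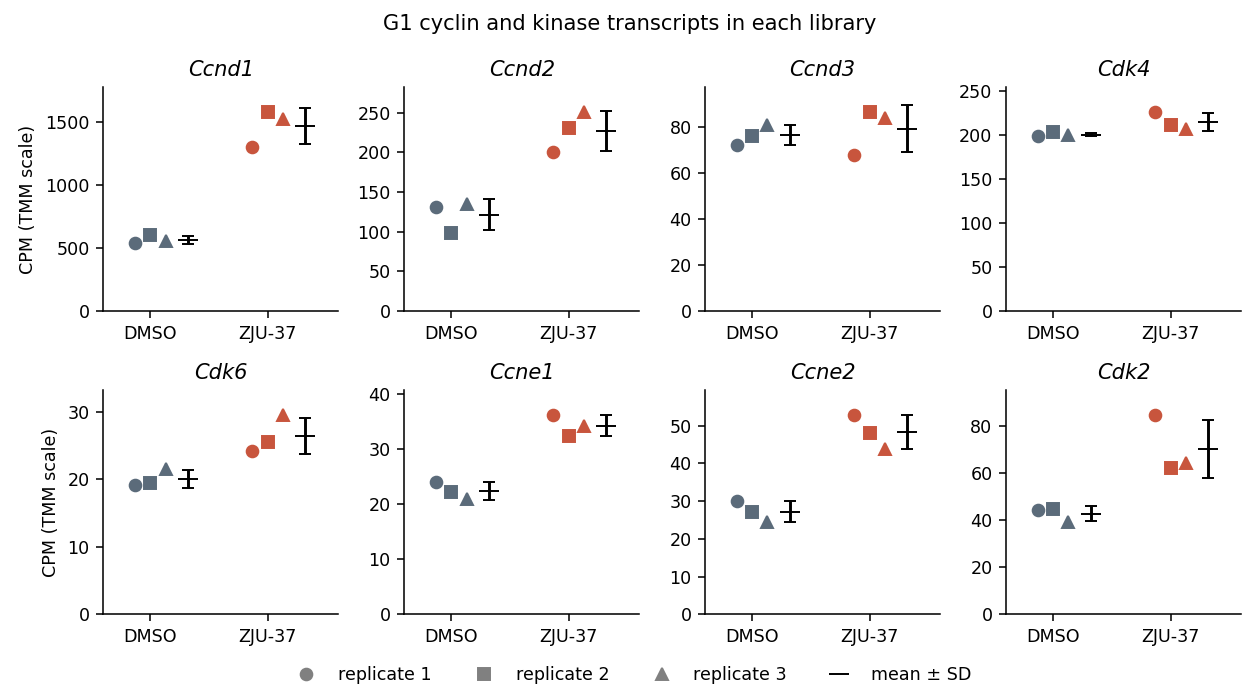
Level of each transcript in CPM on the TMM scale (vertical axes, each starting at 0) in the 3 DMSO and 3 ZJU-37 libraries. Symbols mark the replicate number, bars the mean ± SD; the groups overlap for Ccnd3, and Ccnd1 shows the widest separation, from 602 CPM at most to 1301 CPM at least.

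Between genes, levels were compared per length, as CPM per kilobase of the gene length in the table. These lengths ran from 912 bases for Cdk4 to 3876 for Ccnd1, and the comparison holds only as far as they match the transcripts sequenced. On that scale Cdk4 was the most abundant of the 8 in DMSO (220 ± 2.41 CPM per kb, SD, n = 3 libraries), followed by Ccnd1 (146 ± 8.24), Ccnd2 (85.9 ± 13.9), Ccnd3 (40.0 ± 2.26), Cdk2 (19.5 ± 1.46), Cdk6 (13.4 ± 0.87), Ccne1 (11.5 ± 0.80) and Ccne2 (9.0 ± 0.94). No neighbours in this order overlapped over the DMSO libraries. With ZJU-37 the order at the top was reversed, with Ccnd1 at 378 ± 37.4 and Cdk4 at 236 ± 11.2 CPM per kb. Cdk6, Ccne1 and Ccne2, at 17.7 ± 1.82, 17.6 ± 0.95 and 15.9 ± 1.47 CPM per kb, overlapped one another there. Cdk2 (28.3 to 38.6) and Ccnd3 (35.4 to 45.3) also overlapped with ZJU-37, and in ZJU-37 replicate 1 Cdk2 stood above Ccnd3. Over the 6 libraries Ccnd1 ranked 253 and Cdk4 304 among 14670 genes by CPM per kb, and Ccne2 ranked 6985.

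The make-up of the D cyclin transcripts was set by ratios within a library, which do not depend on scaling between libraries. Ccnd1 made up 51.7, 58.6 and 51.0% of the D cyclin transcripts per kb in DMSO replicates 1, 2 and 3 and 65.5, 66.1 and 63.9% in ZJU-37 replicates 1, 2 and 3, a mean difference of 11.4 percentage points. The share of Ccnd3 was 14.7% ± 0.61 in DMSO and 7.14% ± 0.23 with ZJU-37 (SD, n = 3 libraries each). For both shares the groups did not overlap (p = 0.1 by exact permutation, two-sided, the lowest that 3 against 3 allows). The share of Ccnd2 was 31.5% ± 4.48 and 27.7% ± 1.19, with overlapping groups (p = 0.4, same exact test). Together the 3 D cyclins rose from 272 ± 8.07 to 580 ± 58.5 CPM per kb, so that Ccnd1 accounted for most of the added D cyclin RNA.

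**Figure D2:**
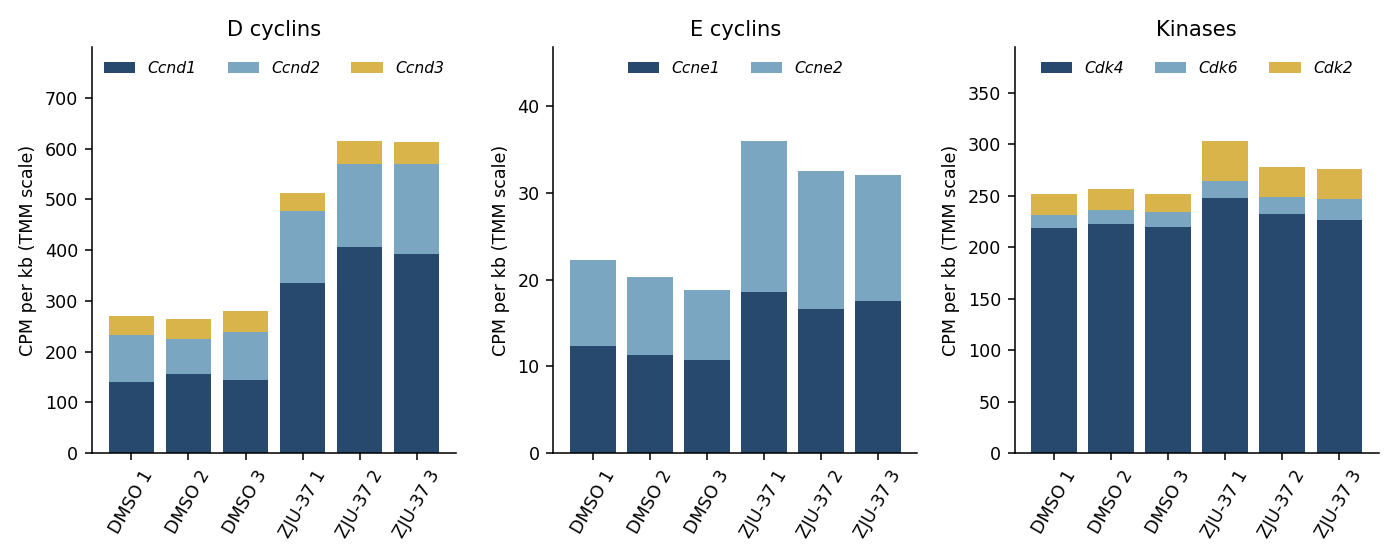
Stacked levels in CPM per kb (vertical axes from 0) of the D cyclins, the E cyclins and the kinases in each library. The D cyclin bars reach 265 to 281 in DMSO and 513 to 615 with ZJU-37, and the kinase bars are mostly Cdk4 in both groups.

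The partners of the D cyclins, Cdk4 and Cdk6, share the task of starting the phosphorylation of the retinoblastoma protein. Cdk4 (ENSRNOG00000025602, chromosome 7, 70349863 to 70352418, plus strand) had 199, 203 and 200 CPM in the DMSO libraries and 226, 212 and 207 CPM in the ZJU-37 libraries. The DMSO libraries had a coefficient of variation of 1.10%, and the lowest ZJU-37 library was 1.02-fold above the highest of them. The log2 fold change was 0.10 (standard error 0.06, adjusted p = 0.35, edgeR), and the 95% confidence interval of the fold ran from 0.970 to 1.18. Its span shares 168 bases with that of Tspan31 on the other strand, and it is not stated whether counting used the strand, so reads there are uncertain.

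Cdk6 (ENSRNOG00000009258, chromosome 4, 27785647 to 27966398, minus strand) had 19.1, 19.5 and 21.6 CPM in the DMSO libraries and 24.3, 25.6 and 29.5 CPM in the ZJU-37 libraries. The groups did not overlap, but the gap was 1.13-fold. Its rise of 0.40 on the log2 scale (standard error 0.10, adjusted p = 0.0465, edgeR) was the smallest of the 6 that passed, and it no longer passed when any 1 of 5 libraries was left out (DMSO replicate 1, 2 or 3 or ZJU-37 replicate 2 or 3), with adjusted p-values up to 0.145 in the same edgeR test, and again with limma-voom, at 0.0541. With the replicate number as a block it was 4.56e-03 (edgeR).

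Cdk4 made up 94.3% ± 0.36 of the transcripts per kb of this pair of kinases in DMSO and 93.0% ± 0.94 with ZJU-37 (SD, n = 3 libraries each), with overlapping groups (two-sided exact permutation test, p = 0.2). In the pairs of replicates 1, 2 and 3 the share was lower with ZJU-37 each time, with differences of -0.601, -1.34 and -1.85 percentage points. The summed D cyclins relative to the summed Cdk4 and Cdk6, per kb, were 1.17, 1.12 and 1.20 in the DMSO libraries and 1.94, 2.47 and 2.49 in the ZJU-37 libraries. This ratio was 1.96-fold higher with ZJU-37, and the groups did not overlap (p = 0.1, same exact test).

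The E cyclins act later in G1, in complex with Cdk2. Ccne1, cyclin E1 (ENSRNOG00000014786, chromosome 1, 94485832 to 94494980, minus strand), had 24.0, 22.2 and 20.9 CPM in the DMSO libraries and 36.2, 32.4 and 34.3 CPM in the ZJU-37 libraries. Each group spanned less than the gap between them, and the log2 fold change was 0.62 (standard error 0.08, adjusted p = 3.98e-03, edgeR). Its promoter window is shown above, and the motif matches in it were not related to this change.

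Ccne2, cyclin E2 (ENSRNOG00000008055, chromosome 5, 24434872 to 24446406, plus strand), had 30.1, 27.2 and 24.4 CPM in the DMSO libraries and 52.8, 48.1 and 43.9 CPM in the ZJU-37 libraries. The groups were well apart, and the log2 fold change was 0.83 (standard error 0.11, adjusted p = 3.08e-03, edgeR). Its span shares 521 bases with that of Ints8 on the other strand, where reads are uncertain in the same way.

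Cdk2 (ENSRNOG00000006469, chromosome 7, 3124954 to 3132457, minus strand) had 44.3, 45.0 and 39.1 CPM in the DMSO libraries and 84.7, 62.1 and 64.6 CPM in the ZJU-37 libraries. ZJU-37 replicate 1 stood above the other ZJU-37 libraries, and all of them were above DMSO. The log2 fold change was 0.72 (standard error 0.13, adjusted p = 0.0132, edgeR), and 0.66 with an adjusted p-value of 0.0530 in the same edgeR test without DMSO replicate 3.

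Within the E cyclins, Ccne1 made up 56.1% ± 0.88 of the transcripts per kb in DMSO and 52.5% ± 2.01 with ZJU-37 (SD, n = 3 libraries each), and the groups did not overlap (two-sided exact permutation test, p = 0.1). The E cyclins rose from 20.5 ± 1.74 to 33.5 ± 2.14 CPM per kb and Cdk2 from 19.5 ± 1.46 to 32.1 ± 5.65 CPM per kb, so that their ratio, between 0.930 and 1.15 in the 6 libraries, overlapped between the groups (p = 1, same exact test). The ratio of E cyclins to D cyclins was 0.0824, 0.0767 and 0.0668 in the DMSO libraries and 0.0701, 0.0528 and 0.0522 in the ZJU-37 libraries. It overlapped between the groups (p = 0.2, same exact test) and was lower with ZJU-37 in each of the 3 pairs of same-numbered libraries.

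**Figure D3:**
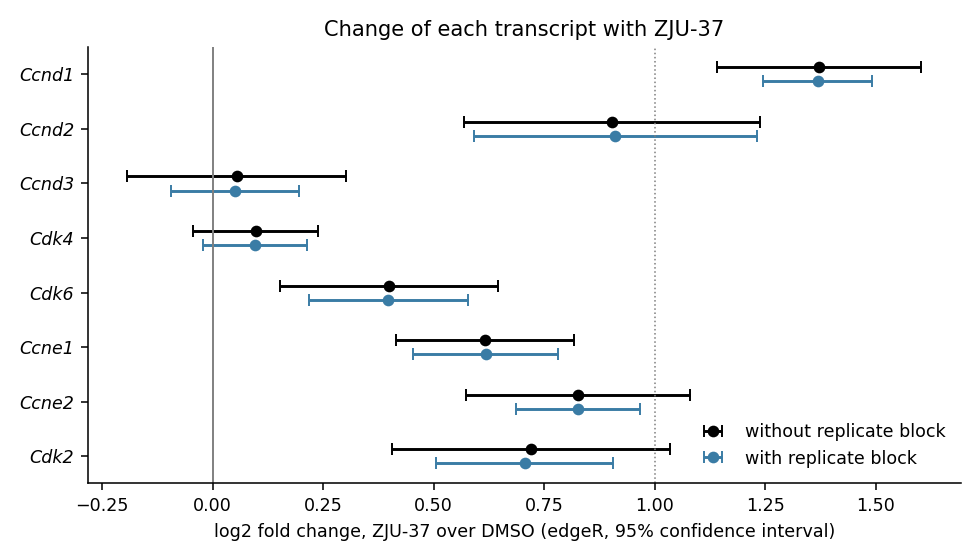
Log2 fold change of each transcript, ZJU-37 over DMSO (horizontal axis), with its 95% confidence interval from edgeR, without (black) and with (blue) the replicate number as a block. The intervals of Ccnd3 and Cdk4 include 0, and that of Ccnd1 lies above 1 (dotted line).

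The 8 genes also varied among libraries of one group. Among the ZJU-37 libraries, replicate 1 was the lowest for Ccnd1, Ccnd2, Ccnd3 and Cdk6 and the highest for Cdk4, Ccne1, Ccne2 and Cdk2. DMSO replicate 1 was likewise the lowest of its group for Ccnd1, Ccnd3 and Cdk6 and the highest for Ccne1 and Ccne2, but it was the lowest for Cdk4 and lay between the others for Ccnd2 and Cdk2. The microglia marker sum was also lowest in replicate 1 of each group, at 2116 and 1521 CPM, while the OPC marker sum was highest there, at 5168 and 6361 CPM, as was the neuron marker sum, at 984 and 892 CPM. The oligodendrocyte marker sum was highest in DMSO replicate 1 but not in ZJU-37 replicate 1. Their part in these differences was not tested. Within the pairs of replicates 1, 2 and 3, the log2 difference was 1.27, 1.39 and 1.45 for Ccnd1 and 0.81, 0.82 and 0.84 for Ccne2, which were close to one another. It was more spread for Ccnd2, at 0.61, 1.22 and 0.90, and for Cdk2, at 0.93, 0.47 and 0.72. The difference was above 0 in all 3 pairs for 7 of the 8 genes, as in 28.4% of all tested genes, and Ccnd3 had -0.09, 0.18 and 0.05.

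**Figure D4:**
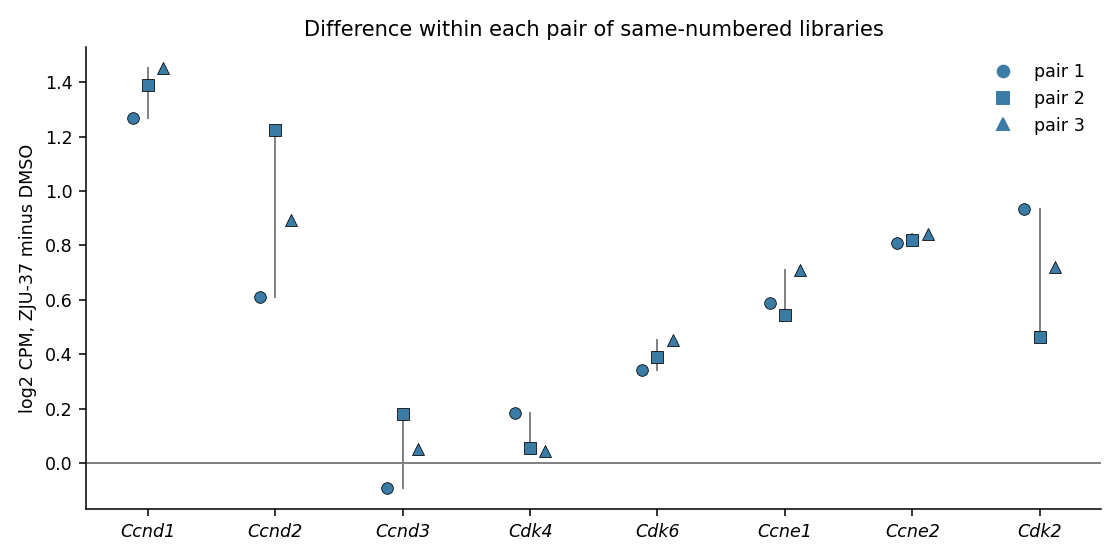
Difference in log2 CPM between the ZJU-37 and the DMSO library of the same replicate number (vertical axis) for each gene, with a symbol per pair and a line over their range. The 3 pairs nearly coincide for Ccne2 and are widest apart for Ccnd2, from 0.61 to 1.22.

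The genes with the most similar profiles over the 6 libraries were taken as those with the smallest root mean square difference in centred log2 CPM among tested genes whose mean level reached 5 CPM. For Ccnd1 these were Phlda1, S100a10 and Cfap20, at 0.028, 0.090 and 0.10, while its nearest neighbour among the 8 genes, Ccnd2, was at 0.30. For Ccnd2 they were Slc16a14, Rorb and Myo16, at 0.076, 0.085 and 0.091. Ccne1 was closest to Pfas, an enzyme of purine synthesis, to Prim2, a subunit of DNA primase, and to Fhl1, at 0.028, 0.036 and 0.038. Ccne2 was closest to Rcc1, Sms and Wee1, at 0.044, 0.057 and 0.059, and Cdk2 to LOC498265, Brca2 and Ror2, at 0.050, 0.053 and 0.054. Ccne1 and Cdk2 were each other's nearest among the 8, at 0.12. Cdk6 was nearest to Bcr, Phlda3 and Camkk2, at 0.042, 0.048 and 0.048. Ccnd3 was nearest to Gab2, Wdr12 and Prdx6, at 0.018, 0.025 and 0.027, and Cdk4 to Mettl21a, Upf1 and Pmpca, at 0.016, 0.019 and 0.019. Neighbours chosen in this way are close to a gene in the size of its change by construction. The likeness is a description over 6 libraries, 3 with DMSO and 3 with ZJU-37, so the difference between the groups enters each profile.

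The rest of the pathway was read from lists of genes by role. Of the CDK inhibitors, 6 of 7 were found, and 1 was higher, Cdkn2c (log2 fold change 0.96), an inhibitor of Cdk4 and Cdk6, and 1 lower, Cdkn1c (-3.95). The remaining 4 did not pass, among them Cdkn1a, at 0.39 with an adjusted p-value of 0.217 (edgeR), which passed with the replicate block at 2.37e-04 (edgeR). Among the retinoblastoma family and the E2F factors, 7 of 12 tested genes were higher and 1 lower. The largest increases were those of E2f8, E2f7 and E2f2 (1.32, 1.26 and 0.95) and of Rbl1 (0.79), and the decrease was that of Rbl2 (-0.28), a pocket protein of resting cells. Of 15 genes that act on the activity or turnover of cyclin-CDK complexes, 4 were higher and 0 lower. The higher ones were Wee1, an inhibitory kinase (0.83), Cks1b (0.81) and Skp2 (0.64), which act in the destruction of CDK inhibitors, and the phosphatase Cdc25a (0.48). Here 9.43% of all tested genes were higher and 5.58% lower. With the replicate block, 2, 9 and 5 genes of these lists, in the order given, were higher and 1, 1 and 0 lower. In that fit 16.2% of all tested genes were higher and 15.9% lower.

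Genes that E2F factors control at the entry into S phase were higher in all 20 of 20 cases, with a median log2 fold change of 1.21. Over all tested genes 9.43% were higher, and the median was -0.03. The lists were chosen with earlier results of these data known. The largest were Rrm2 (1.59), a subunit of ribonucleotide reductase, the licensing factors Cdc6 (1.5) and Cdt1 (1.33), and the helicase subunit Mcm5 (1.31). All 4 tested genes among the later cyclins and Cdk1 were higher too, with Ccnb1, Ccna2, Cdk1 and Ccnf at 1.29, 1.29, 1.23 and 1.13. The median of the 8 G1 genes, 0.67, was below the medians of both lists, 1.21 and 1.26, although Ccnd1 (1.37) was above them, and the lists were not compared by a test.

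The other cyclins and CDK-related kinases, most of them with roles in transcription or in cells that do not divide, were counted in the same way. Of 24 tested genes, 2 were higher, Ccna1 (0.90) and Ccng1 (0.41), and 4 were lower, Ccnjl (-1.51), Ccny (-0.68), Cdk14 (-0.54) and Cdk5 (-0.25), and the median was -0.02. The count of higher genes was near the share over all tested genes, 9.43%, and 5.58% of all were lower. With the replicate block 7 were lower, where 15.9% of all tested genes were. On the path from mitogens to the D cyclins, 6 of 19 genes were higher and 1 lower, where 9.43% and 5.58% of all tested genes were. The count of lower genes was near the share of 5.58%. The highest were Egr1 (2.11), Pdgfra (1.10, also in the OPC marker list), Fos (0.82) and Mycn (0.51), and the MAP kinase gene Mapk3 fell by 0.55 on the log2 scale. Myc, a regulator of Ccnd2 and Cdk4, did not pass (0.18, adjusted p = 0.132, edgeR).

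**Figure D5:**
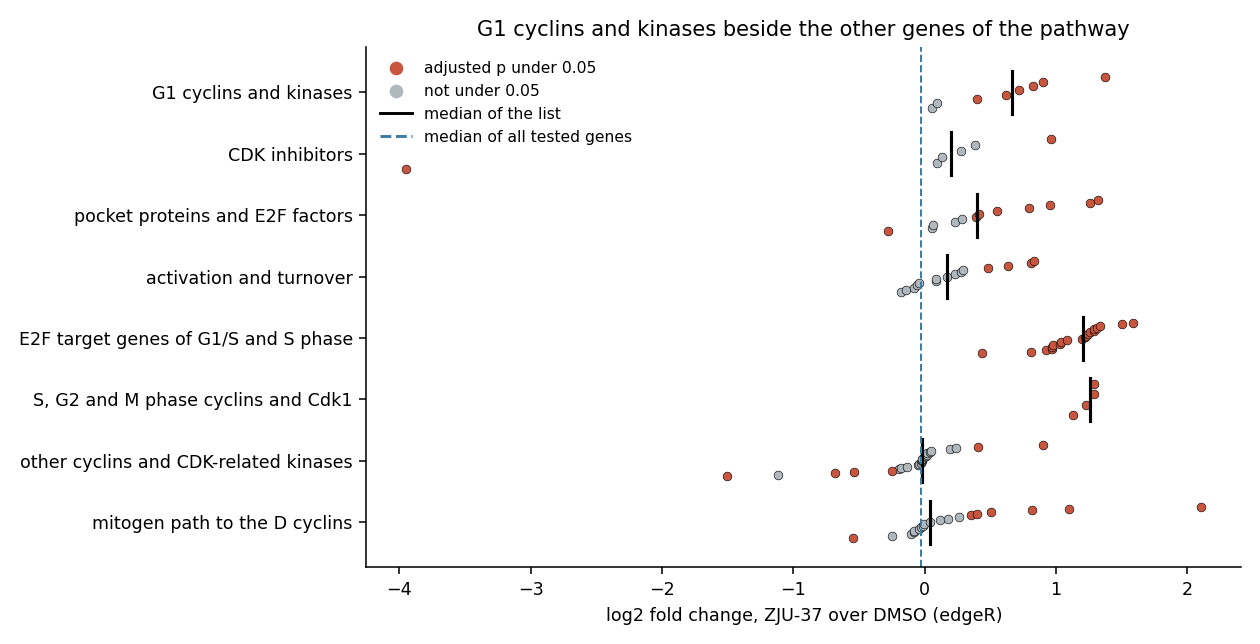
Log2 fold change of each tested gene, ZJU-37 over DMSO (horizontal axis), for the G1 cyclins and kinases and for 7 lists of related genes, with called genes in red, the median of each list as a black bar and the median of all tested genes as a dashed line. The G1 genes spread from 0.05 to 1.37, while the 20 E2F target genes lie between 0.44 and 1.59.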

How the data were processed

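RNA from 3 DMSO and 3 ZJU-37 libraries was sequenced by the study. Per the labels and the study's methods, the raw counts per gene were made by the authors with featureCounts 1.5.0; HISAT2 2.0.5 and StringTie 1.3.3b are also listed in the submitters' processing notes, and the genome build is not given in the sources used here. The deposited FPKM values are the counts divided by gene length and by a library total 0.979 to 1.03 times the sum of the counts. Columns of the authors' own comparison (group means, fold changes and p-values) were not used.

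Counts were filtered with filterByExpr, scaled by TMM and tested with edgeR 4.0.16 (R 4.3.3; glmQLFit, robust, glmQLFTest) on all 6 libraries, with Benjamini-Hochberg adjustment over 14670 genes. Standard errors come from the fold change and its F statistic. The fit was tested on simulated data.

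Same-numbered libraries were taken as pairs, which the labels do not state. Deviations from the group mean correlated across genes with r = 0.394, 0.312 and 0.329 in same-numbered libraries and between -0.271 and -0.0116 otherwise. Deviations within a group cancel, so positive values for same-numbered libraries make the others negative on balance. No library was a duplicate of another (lowest chi-square per degree of freedom 11.3, so that libraries differed by more than counting error). The 8 genes and the lists were chosen with earlier results of these data known. Named were the 8 genes, at most 4 called genes per list and direction with the largest change, and the 3 nearest profiles (log2 CPM, prior count 2). Cdkn1a and Myc were named after their values were seen. Of the listed genes, Cdkn2d, E2f1, Ccnb2, Ccnl1, Cdk8, Lhfpl3 and Pecam1 were not analysed here. Alternatives were DESeq2 1.42.0, limma 3.58.1 (voom, and log2(FPKM + 1)), other scalings and filters, the replicate block and leaving out each library.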

Additional observations from a re-analysis of the deposited data

How the results depend on the processing

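None of the 8 fold changes changed sign in the alternatives run, and neither did the differences in 4 shares or in the E to D cyclin ratio when 1 library was left out. Cdk6 was the gene whose call depended most on the settings. Its log2 fold change was 0.40 with limma-voom (adjusted p = 0.0541) and ran from 0.34 to 0.47 with 1 library left out, where its edgeR adjusted p-value rose to between 0.0744 and 0.145 without DMSO replicate 1, 2 or 3 or without ZJU-37 replicate 2 or 3. That of Cdk2 ran from 0.58 to 0.83, with an adjusted p-value of 0.0530 without DMSO replicate 3. The number of the 8 genes called ran from 4 to 6 over these fits. With the replicate block, 4705 genes were called over the table in place of 2201, of which 50.4% against 62.8% were higher, while 6 of the 8 genes were called in both; the block changed no call of the 8. With 1 library left out, between 1306 and 1927 genes were called, the fewest without DMSO replicate 2 (1306) and without ZJU-37 replicate 3 (1351). Each of the fits with 1 library left out had fewer libraries than the main fit. Where an arm had 2 libraries, the spread was pooled over both groups. DESeq2 size factors, library totals, both filters, DESeq2 and limma on log2(FPKM + 1) moved no call of the 8 genes. With 1 library left out, the difference in share ran from 10.0 to 13.8 percentage points for Ccnd1, from -6.43 (without DMSO replicate 2) to -2.45 (without DMSO replicate 1) for Ccnd2, from -4.77 to -2.93 for Ccne1 and from -1.69 to -0.759 (without ZJU-37 replicate 3) for Cdk4, and the log2 E to D cyclin ratio differed by -0.514 to -0.302. The deposited FPKM give the same shares by construction. Changes near the size of those of Ccnd3 and Cdk4 could not be resolved with 3 libraries per group.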
